A study of Mus musculus with 12 samples.

Results

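The genes described here run the making and export of cholesterol in the cell: 33 genes of sterol synthesis, its regulation through sterol regulatory element binding proteins (SREBPs), fatty acid synthesis, and the liver X receptors (LXRs) with their targets. They were chosen by symbol, with 7 enzymes of the mevalonate arm, 10 of the squalene and sterol arm, 6 genes of SREBP regulation and sterol transport, 5 of fatty acid synthesis and 5 LXR genes. All 33 were on the array, among 30101 gene names, and all 33 were among the 18630 genes tested. They were read by 50 probes, and each gene was represented by its brightest probe.

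Sterol synthesis starts from acetyl-CoA, runs through mevalonate and farnesyl diphosphate to squalene, and closes the sterol rings before a series of late enzymes finishes cholesterol. When sterols in the endoplasmic reticulum run low, the protein SCAP escorts the SREBP transcription factors to the Golgi for cleavage, and INSIG proteins hold this complex back when sterols are plentiful. Oxysterols, in turn, activate the LXRs, which switch on cholesterol export through ABCA1 and ABCG1 and the ubiquitin ligase MYLIP. Dividing T cells are known to need sterols and fatty acids for new membranes.

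The study profiled mouse CD4+ T cells in experimental autoimmune encephalomyelitis, an inflammatory disease of the brain and spinal cord used as a model of multiple sclerosis, on 12 single-colour arrays in 4 groups of 3. The immunised group held CD4+ T cells from the central nervous system (CNS) of wild-type C57BL/6 mice at peak disease, after immunisation with a peptide of myelin oligodendrocyte glycoprotein (MOG). The transferred cells were cultured B6.2d2 Th17 cells injected into Rag1-/- mice, which lack mature T and B cells of their own, and recovered as CD4+ T cells from the CNS at peak disease. The cultured Th17 cells were differentiated in vitro from naive B6.2d2 CD4+ T cells, and the naive cells came from the spleen of B6.2d2 mice. B6.2d2 mice carry a transgenic T cell receptor for MOG, so the transferred, cultured and naive cells share a receptor, while the immunised mice had their own repertoire. The labels used here give neither ages, days, the purity of the cells nor the number of mice pooled, and the series text says that replicates came from 3 independent experiments.

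Of the non-control spots, 57.1% to 64.9% were well above background on each array. All 12 genes of a T cell core list were well above background on every array. Their summed signal, as a multiple of each array's 75th percentile, was 342 to 522 in the immunised group, 258 to 368 in transferred cells, 561 to 588 in cultured Th17 cells and 531 to 612 in naive cells. Of 18 macrophage and monocyte markers, 17 were well above background on all arrays of each CNS group, against 12 in cultured Th17 cells and 8 in naive cells. Their summed signal was 360 to 890 in the immunised group, 408 to 693 in transferred cells, 22.8 to 37.9 in cultured Th17 cells and 24.3 to 97.8 in naive cells. C1qc and Spi1, defining macrophage genes, were not well above background on any cultured or naive array, and Cd163, another, on none of those and on none of the immunised arrays. These are bulk samples, so fewer cells of a type and less RNA per cell cannot be told apart. Each of 3 slides held 1 array of each group at a position fixed by group, so position and group cannot be told apart.

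Promoters come first, since the enzymes of the pathway are known to share control by SREBP, NF-Y and Sp1. RefSeq windows (GRCm38.p6, 250 bases before to 50 after a start) were matched to 26 of the 33 genes, 35 windows in all. Exact matches were searched on both strands for TCACNCCAC (a sterol regulatory element, SRE), CCAAT (bound by NF-Y), GGGCGG (Sp1), CACGTG (an E-box) and AGGTCA (a nuclear receptor site). CCAAT stood in 21 of the 35 windows (60%), against 37.4% of all 32851 windows, and was found for 13 of the 14 synthesis enzymes that had a window. GGGCGG stood in 25 windows (71.4%), against 35.7% of all, and CACGTG in 7 (20%), against 7.15% of all. AGGTCA was about as frequent in the windows of these genes (17.1%) as in all windows (16.3%). The SRE letters stood in 1 window (2.86%), that of Hmgcs1, against 1.24% of all. Other spellings of the SRE were not searched for, and genes without a window included Fdps and Sqle. The count therefore does not show how many of the genes hold an SRE. AGGTCA repeated exactly after 4 bases, a strict form of the LXR element (DR4), was in 0 of the 35 windows and in 5 of all 32851. This says only that these letters are not in these windows. Repeats with other letters were not searched for, so the count does not show whether a window, as that of Abca1, holds an LXR element. The windows were not matched for base composition, and a match describes letters, not binding.

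The 250 bases before the start are printed 5′ to 3′ on the strand of the gene, in a choice made after the matches were seen. They are shown for Hmgcs1, which holds the SRE letters, for Hsd17b7, which had the largest changes among the synthesis enzymes in culture over naive cells and in both CNS groups over culture, for Srebf2, and for Mylip and Abca1, LXR targets that were higher in the CNS groups than in culture, where most synthesis enzymes were lower. Capitals mark matches to the SRE or to CCAAT, with ATTGG standing for CCAAT on the other strand.
Hmgcs1 (chr13:119690101-119690350, plus strand): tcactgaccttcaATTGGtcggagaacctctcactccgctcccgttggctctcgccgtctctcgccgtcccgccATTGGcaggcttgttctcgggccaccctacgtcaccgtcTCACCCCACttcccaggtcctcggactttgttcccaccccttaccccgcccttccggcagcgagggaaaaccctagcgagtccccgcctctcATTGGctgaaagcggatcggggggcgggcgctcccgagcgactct
Hsd17b7 (chr1:169969206-169969455, minus strand): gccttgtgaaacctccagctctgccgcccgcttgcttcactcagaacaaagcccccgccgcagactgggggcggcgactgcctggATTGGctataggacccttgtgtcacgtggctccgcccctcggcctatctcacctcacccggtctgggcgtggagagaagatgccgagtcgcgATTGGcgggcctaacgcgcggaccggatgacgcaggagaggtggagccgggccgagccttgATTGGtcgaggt
Srebf2 (chr15:82147019-82147268, plus strand): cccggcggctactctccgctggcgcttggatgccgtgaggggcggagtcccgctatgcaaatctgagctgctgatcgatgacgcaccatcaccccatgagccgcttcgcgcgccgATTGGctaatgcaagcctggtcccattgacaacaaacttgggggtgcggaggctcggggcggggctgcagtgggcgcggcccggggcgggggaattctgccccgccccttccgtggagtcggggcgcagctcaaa
Mylip (chr13:45389492-45389741, plus strand): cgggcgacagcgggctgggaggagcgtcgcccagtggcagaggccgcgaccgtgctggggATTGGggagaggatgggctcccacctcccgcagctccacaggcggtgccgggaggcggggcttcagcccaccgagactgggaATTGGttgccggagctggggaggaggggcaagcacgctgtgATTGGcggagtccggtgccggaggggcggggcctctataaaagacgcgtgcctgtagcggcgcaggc
Abca1 (chr4:53159896-53160145, minus strand): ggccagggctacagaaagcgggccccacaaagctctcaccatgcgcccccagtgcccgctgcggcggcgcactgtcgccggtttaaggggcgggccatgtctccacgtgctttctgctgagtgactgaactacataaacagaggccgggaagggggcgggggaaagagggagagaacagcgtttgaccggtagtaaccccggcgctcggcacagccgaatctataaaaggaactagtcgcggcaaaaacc
The SRE match of Hmgcs1 begins 137 bases before the start, and its CCAAT matches at 237, 176 and 45 bases before it. Hsd17b7 has 3 CCAAT matches, at 165, 73 and 12 bases before the start, and Srebf2 has 1, at 135 bases. Mylip has 3 as well, at 190, 108 and 67 bases. Its level ran opposite to those of most synthesis enzymes in the comparisons with culture, but not in those of the CNS groups with naive cells. The Abca1 window holds neither motif.

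**Figure D1:**
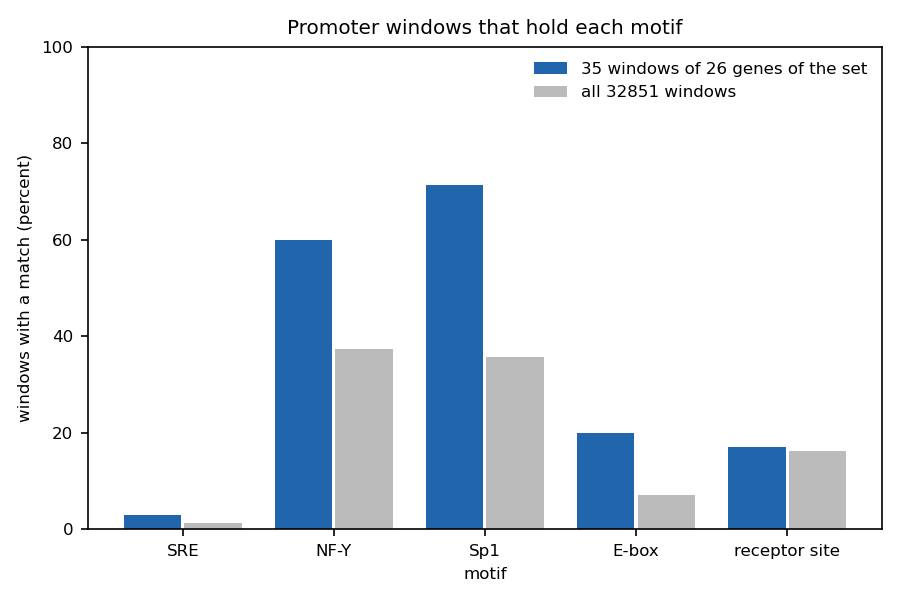
Share of promoter windows with a match (vertical axis, percent) for each motif (horizontal axis), for 35 windows of 26 genes of the set (blue) and all 32851 windows (grey). The blue bars are taller for NF-Y, Sp1 and the E-box, and almost level with the grey ones for the nuclear receptor site, at 17.1% and 16.3%.

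The first comparison asked how T cells changed when naive cells were differentiated into Th17 cells in culture. Nearly the whole synthesis pathway was higher in culture, together with the desaturases and most regulators, while the LXR targets Mylip and Abcg1 were lower. Each level below is the log2 of the signal divided by its array's 75th percentile, and a gene was called when its limma p, adjusted by the Benjamini-Hochberg method over 18630 genes, was under 0.05. In cultured Th17 cells 23 of the 33 genes rose and 3 fell, where 19.7% of all genes tested rose and 20.3% fell (40.1% in either direction). Without regard to any test, all cultured arrays lay above all naive arrays for 23.6% of all genes and below them for 26.2%. All 7 enzymes of the mevalonate arm and 9 of 10 of the squalene and sterol arm rose, with a median log2 change of 1.96 over the 17 enzymes, against −0.08 over all genes tested. On the 3 slides, that median was 1.26, 2.15 and 2.06.

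In the mevalonate arm, Fdps makes farnesyl diphosphate, the branch point to sterols and to protein prenylation. Its levels, from a probe at chr3:88897549-88897608, mm9, were 1.97, 2.20 and 2.20 in the immunised group, 1.73, 1.95 and 1.65 in transferred cells, 4.84, 4.67 and 5.21 in cultured Th17 cells and 2.81, 2.08 and 2.34 in naive cells. The cultured arrays lay above all 9 others, and the rise over naive cells was 2.50 ± 0.21 (± is the standard error of the fit, with 3 arrays in each group; adjusted p = 1.36e-05). Mvd, the mevalonate diphosphate decarboxylase, rose by 2.47 ± 0.27, Hmgcs1, the HMG-CoA synthase, by 2.30 ± 0.17, and Idi1, the isopentenyl diphosphate isomerase, by 2.06 ± 0.23. The kinases changed less, at 1.51 ± 0.37 for Pmvk and 0.76 ± 0.25 for Mvk, and Acat2, the cytosolic thiolase that opens the arm, rose by 0.93 ± 0.19.

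In the squalene and sterol arm the largest rise was that of Hsd17b7, a ketoreductase of the late pathway. Its levels, from a probe at chr1:171880203-171880262, mm9, were −2.44, −2.10 and −2.29 in the immunised group, −2.32, −2.25 and −1.27 in transferred cells, 0.52, 1.60 and 1.53 in cultured Th17 cells and −2.25, −3.07 and −2.61 in naive cells. Cultured Th17 cells stood above every other array, by 3.86 ± 0.36 over naive cells (adjusted p = 2.25e-05), and its other probes were higher by 2.09 and 3.67. Sqle, the squalene epoxidase, a rate-limiting step, is read by a probe at chr15:59162688-59162747, mm9. Its levels were 0.85, 1.12 and 0.93 in the immunised group, 0.78, 1.0 and 0.64 in transferred cells, 3.39, 3.24 and 3.83 in cultured Th17 cells and 1.81, 0.30 and 1.18 in naive cells. The cultured arrays again lay above the 9 others, and the rise over naive cells was 2.39 ± 0.33 (adjusted p = 0.000246).

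Lss, the lanosterol synthase, rose by 2.23 ± 0.22, Fdft1, the squalene synthase, by 2.02 ± 0.27 and Cyp51, the lanosterol demethylase, by 1.96 ± 0.19. Smaller rises were those of Sc5d, a sterol desaturase (1.39 ± 0.33), Nsdhl, a sterol dehydrogenase (1.26 ± 0.18), Dhcr7, the reductase of a last step (0.63 ± 0.18), and Ebp, a sterol isomerase (0.57 ± 0.19). The calls of Mvk, Ebp and Dhcr7 depended on single arrays: Mvk lost its call without naive replicate 2 or 3 or cultured replicate 1 or 2 (adjusted p up to 0.112), Ebp without any 1 of 8 of the 12 arrays (up to 0.0992), and Dhcr7 without naive replicate 2 (0.0565). Tm7sf2, a sterol reductase, differed by 0.52 ± 0.23 and was not called (adjusted p = 0.0975).

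Of the 6 regulators 4 rose, 1 fell and 1 was not called. Insig1, which holds SCAP in the endoplasmic reticulum and is itself an SREBP target, had levels of −0.22, −0.24 and −0.08 in cultured Th17 cells, against −1.66, −3.26 and −2.16 in naive cells. The groups did not overlap, and Insig1 rose by 2.18 ± 0.32 (adjusted p = 0.00044). Insig2, its paralog, had 0.85, 1.28 and 1.16 in cultured Th17 cells, against −0.80, 0.15 and 0.00 in naive cells, a rise of 1.32 ± 0.24. Stard4, a carrier of sterol between membranes, had 1.84, 1.60 and 2.56 in cultured Th17 cells, against −0.27, −0.31 and −0.09 in naive cells, a rise of 2.22 ± 0.24. Both genes were higher on each cultured array than on any naive array.

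Srebf2, which encodes the SREBP that drives cholesterol synthesis, had levels of 1.41, 1.05 and 1.27 in cultured Th17 cells, against 0.12, −0.81 and 0.31 in naive cells, a rise of 1.37 ± 0.30. Srebf1, whose products favour fatty acid synthesis, had −2.14, −1.55 and −1.89 in cultured Th17 cells, against −2.36, −2.29 and −2.31 in naive cells, a difference of 0.46 ± 0.24 that was not called (adjusted p = 0.154). Scap had 2.91, 2.58 and 2.41 in cultured Th17 cells, against 3.40, 3.21 and 3.10 in naive cells, and changed by −0.60 ± 0.18 (adjusted p = 0.0211). The transcript of the escort protein was thus lower on every cultured array, while those of its retention partners were higher. The Scap call was lost without naive replicate 1 or cultured replicate 2 or 3, with adjusted p of 0.0675, 0.0545 and 0.0547.

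Among fatty acid genes the stearoyl-CoA desaturases, which make monounsaturated fatty acids, changed most. Scd1 had levels of 0.54, 0.57 and 0.82 in cultured Th17 cells, against −5.38, −6.99 and −5.68 in naive cells. It was well above background on 3 cultured arrays and on 0 naive arrays, so it was at least 73.6-fold higher in culture (adjusted p = 0.000102). Only the cultured arrays, where it was high, brought Scd1 into the test, so its p gives no separate support. The counts of these genes include it. Scd2 had 5.29, 5.57 and 6.18 in cultured Th17 cells, against 1.54, 2.17 and 2.09 in naive cells, and rose by 3.75 ± 0.26 (adjusted p = 3e-06). Acaca, which makes malonyl-CoA, had 2.31, 2.38 and 1.57 in cultured Th17 cells, against 1.06, 1.10 and 1.07 in naive cells, and rose by 1.01 ± 0.20. The groups did not overlap for any of these 3 genes.

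Fasn, the fatty acid synthase, had −1.88, −2.31 and −1.82 in cultured Th17 cells, against −2.15, −2.20 and −2.21 in naive cells, and was not called (0.18 ± 0.26, adjusted p = 0.608). Acly, which supplies cytosolic acetyl-CoA, had 4.11, 4.04 and 4.11 in cultured Th17 cells, against 3.95, 3.82 and 3.83 in naive cells, and was not called (0.22 ± 0.14, adjusted p = 0.242). The groups overlapped for Fasn, while the cultured arrays of Acly lay just above the naive ones.

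Of the LXR genes limma called 2 lower and 0 higher in culture, and 0 were higher at an unadjusted p under 0.05. Mylip, a ubiquitin ligase that marks lipoprotein receptors for removal, fell most of all 33 genes. Its levels were 0.05, −1.22 and −1.32 in cultured Th17 cells, against 2.04, 2.48 and 2.23 in naive cells, a change of −3.08 ± 0.35 (adjusted p = 6.98e-05), and its second probe changed by −3.22. Abcg1, a cholesterol exporter, had 1.96, 2.29 and 1.31 in cultured Th17 cells, against 2.93, 3.65 and 3.23 in naive cells, a change of −1.41 ± 0.32 (adjusted p = 0.00572). Every cultured array was below every naive array for both genes.

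Abca1, the exporter that loads cholesterol onto apolipoproteins, had −1.15, 0.32 and −2.90 in cultured Th17 cells, against −1.72, −1.06 and −2.49 in naive cells, and was not called (0.51 ± 0.73, adjusted p = 0.61). Cultured replicate 3 was the lowest of the 12 arrays for Abca1, Abcg1, Mylip and Nr1h3 alike, and without it the Abca1 difference was 1.34 (adjusted p = 0.112). Nr1h3, LXR alpha, had −3.05, −2.13 and −3.86 in cultured Th17 cells, against −2.60, −2.38 and −2.76 in naive cells (−0.44 ± 0.58, adjusted p = 0.579). Nr1h2, LXR beta, had 3.30, 3.36 and 4.19 in cultured Th17 cells, against 3.73, 3.57 and 3.44 in naive cells (0.04 ± 0.22, adjusted p = 0.907). The groups overlapped for these 3 genes.

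**Figure D2:**
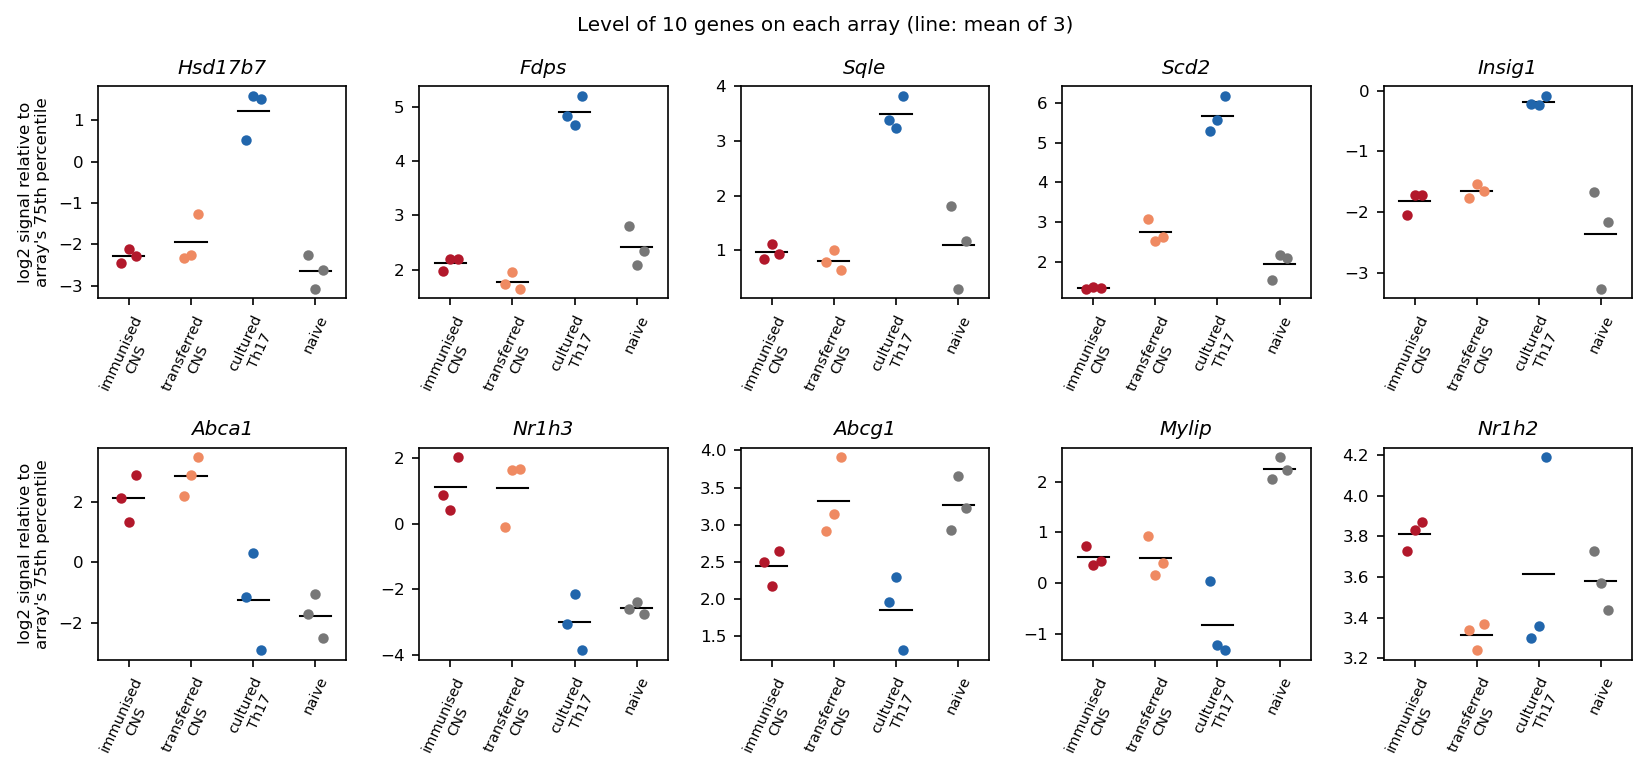
Level of 10 genes on each array (vertical axis, log2 signal over the 75th percentile of its array, with a scale of its own in each panel) in the immunised group, transferred cells, cultured Th17 cells and naive cells, with 1 point per array and a line at the mean of 3. Fdps, Sqle and Hsd17b7 stand highest on the cultured arrays, and Abca1 and Nr1h3 are higher on all 6 CNS arrays than on the 6 others.

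The next comparisons asked how T cells in the inflamed CNS differed from cultured Th17 cells. In both CNS groups most of the synthesis, regulatory and fatty acid genes were lower than in culture, and of the 5 LXR genes Abca1, Nr1h3 and Mylip were higher. In the immunised group 23 of the 33 genes fell and 3 rose, where 17.8% of all genes tested fell and 13.7% rose (31.5% in either direction). In transferred cells 24 fell and 4 rose, where 15.5% of all genes fell and 12.8% rose (28.3% in either direction). The comparisons share the cultured arrays. Of the 17 enzymes, 14 fell in the immunised group and 15 in transferred cells, with medians of −1.82 and −2.19, against −0.17 and −0.10 over all genes tested. On the 3 slides the median was −1.93, −1.53 and −1.97 in the immunised group, and −1.92, −1.76 and −2.22 in transferred cells.

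Hsd17b7 fell far below its cultured level, and changed by −3.50 ± 0.36 in the immunised group (adjusted p = 6.52e-05) and by −3.16 ± 0.36 in transferred cells (adjusted p = 0.000142). Fdps changed by −2.78 ± 0.21 in the immunised group and −3.13 ± 0.21 in transferred cells, and Sqle by −2.52 ± 0.33 and −2.68 ± 0.33. For these 3 genes every CNS array lay below every cultured array, where without regard to any test 29.4% of all genes did so in the immunised group (19.6% lay above) and 23.9% in transferred cells (17.5% above). Hmgcs1 changed by −2.37 ± 0.17 and −2.36 ± 0.17, Lss by −2.38 ± 0.22 and −2.38 ± 0.22, Idi1 by −2.25 ± 0.23 and −2.63 ± 0.23, and Mvd by −2.14 ± 0.27 and −2.27 ± 0.27, in the same order of groups. Fdft1 changed by −1.71 ± 0.27 and −2.19 ± 0.27, while its second probe, well above background on 3 of 12 arrays, went the other way.

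Pmvk and Ebp were the enzymes called in neither CNS group. Pmvk, the phosphomevalonate kinase, had 3.26, 2.68 and 3.48 in the immunised group, 2.61, 3.93 and 2.63 in transferred cells and 3.11, 3.10 and 3.67 in cultured Th17 cells. It differed from culture by −0.15 ± 0.37 in the immunised group and −0.24 ± 0.37 in transferred cells (adjusted p = 0.775 and 0.682), and its second probe by −0.15 and −0.26. Ebp differed by −0.03 ± 0.19 and −0.27 ± 0.19 (adjusted p = 0.924 and 0.324). Sc5d was not called in the immunised group (−0.71 ± 0.33, adjusted p = 0.13) and fell in transferred cells (−1.20 ± 0.33, adjusted p = 0.0219). Without cultured replicate 3 it passed the test in the immunised group too (−1.05, adjusted p = 0.0245), and the call in transferred cells was lost without cultured replicate 1 or 2 or transferred replicate 2 or 3 (adjusted p up to 0.0739).

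Of the 6 regulators 5 fell in each CNS group. Stard4 had −0.15, −0.38 and −0.45 in the immunised group and −0.49, −0.23 and −0.65 in transferred cells, changes of −2.32 ± 0.24 and −2.46 ± 0.24 from culture. Insig1 had −2.04, −1.72 and −1.71 in the immunised group and −1.76, −1.53 and −1.65 in transferred cells, changes of −1.65 ± 0.32 and −1.47 ± 0.32. Insig2 had 0.05, 0.03 and 0.08 in the immunised group and −0.01, −0.01 and 0.27 in transferred cells, changes of −1.04 ± 0.24 and −1.01 ± 0.24. For these 3 genes no CNS array reached the lowest cultured array.

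Srebf1 had −2.80, −2.62 and −2.71 in the immunised group and −3.45, −2.96 and −2.47 in transferred cells, changes of −0.85 ± 0.24 and −1.10 ± 0.24. The fall in the immunised group lost its call without cultured replicate 2 or immunised replicate 1 or 3 (adjusted p = 0.0647, 0.07 and 0.0579). Scap had 3.01, 2.97 and 2.93 in the immunised group and 2.97, 2.60 and 2.59 in transferred cells, differed by 0.34 ± 0.18 and 0.09 ± 0.18, and was not called (adjusted p = 0.171 and 0.757).

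Srebf2 is read by 2 probes that disagreed in the CNS. The brightest (chr15:82034765-82034824, mm9) had −0.91, −0.39 and −0.42 in the immunised group and −0.65, −1.10 and −0.34 in transferred cells, changes of −1.82 ± 0.30 and −1.94 ± 0.30 from culture. The second probe, upstream at chr15:82030068-82030127, had 0.65, −0.35 and 1.26 in the immunised group, 0.07, 0.42 and −0.02 in transferred cells, −1.48, −1.74 and −1.34 in cultured Th17 cells and −2.17, −3.04 and −2.11 in naive cells. By that probe Srebf2 was higher than in culture by 2.04 ± 0.38 in the immunised group (adjusted p = 0.00246 over 24333 probes) and by 1.68 ± 0.38 in transferred cells (adjusted p = 0.00836). Both probes were well above background on all 12 arrays, and in culture over naive cells the second differed by 0.92 ± 0.38 (adjusted p = 0.0749), the same direction as the first. The direction of Srebf2 in the CNS therefore depends on the probe, and the transcript each probe reads was not analysed here.

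**Figure D3:**
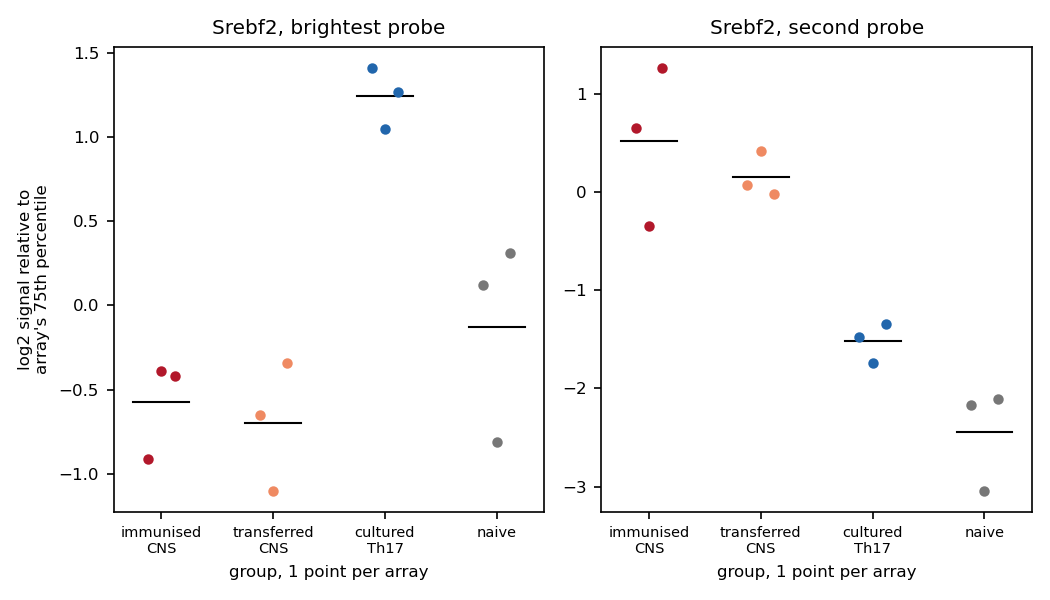
Level of Srebf2 by its brightest probe (left) and its second probe (right) on each array (vertical axis, log2 signal over the 75th percentile of its array) in the immunised group, transferred cells, cultured Th17 cells and naive cells, with a line at the mean of 3. Against cultured Th17 cells the CNS arrays are lower by the first probe and higher by the second.

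In fatty acid synthesis 4 of 5 genes fell in each CNS group. Scd2 had 1.32, 1.35 and 1.34 in the immunised group and 3.07, 2.53 and 2.63 in transferred cells, changes of −4.34 ± 0.26 and −2.93 ± 0.26 (adjusted p = 2.82e-06 and 3.01e-05). Scd1, the largest fall of the 33 genes, had −5.15, −3.58 and −5.25 in the immunised group and −2.99, −6.27 and −3.40 in transferred cells. It was well above background on 1 of 3 immunised and 2 of 3 transferred arrays, and its fitted changes were −5.30 ± 0.79 and −4.87 ± 0.79 (adjusted p = 0.000691 and 0.00135). As Scd1 entered the test only through the cultured arrays, these p give no separate support for its falls. Without transferred replicate 1 or 2 the Scd1 change in transferred cells was −5.48 or −3.84. Neither desaturase overlapped with culture.

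Fasn had −3.71, −3.35 and −4.22 in the immunised group and −3.06, −3.70 and −3.72 in transferred cells, changes of −1.75 ± 0.26 and −1.49 ± 0.26. Acaca had 0.72, 0.87 and 0.74 in the immunised group and 0.91, 0.90 and 0.96 in transferred cells, changes of −1.31 ± 0.20 and −1.16 ± 0.20. Acly had 4.18, 4.20 and 4.22 in the immunised group and 3.65, 3.92 and 4.01 in transferred cells, and was not called (0.11 ± 0.14 and −0.23 ± 0.14, adjusted p = 0.566 and 0.258). All 6 CNS arrays of Fasn were also below the naive arrays.

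The rises of both comparisons were LXR genes: Abca1, Nr1h3 and Mylip in each CNS group, and Abcg1 in transferred cells. Abca1, read at chr4:53043944-53044003, mm9, had 2.14, 1.33 and 2.88 in the immunised group and 2.20, 2.89 and 3.48 in transferred cells. These exceeded every cultured array, by 3.36 ± 0.73 in the immunised group (adjusted p = 0.00591) and 4.10 ± 0.73 in transferred cells (adjusted p = 0.00231). Without cultured replicate 2 these rises were 4.14 and 4.88, and without cultured replicate 3 they were 2.54 and 3.28. Nr1h3, read at chr2:91024250-91024309, mm9, had 0.89, 0.41 and 2.04 in the immunised group and −0.09, 1.65 and 1.69 in transferred cells. It too exceeded every cultured array, with rises of 4.13 ± 0.58 (adjusted p = 0.000472) and 4.10 ± 0.58 (adjusted p = 0.000579), and its second probe rose by 3.91 and 4.10.

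Mylip had 0.73, 0.36 and 0.44 in the immunised group and 0.93, 0.15 and 0.40 in transferred cells, rises of 1.34 ± 0.35 (adjusted p = 0.014) and 1.33 ± 0.35 (adjusted p = 0.0165). The call was lost without immunised replicate 1 in the immunised group (adjusted p = 0.054), and without cultured replicate 2 or transferred replicate 1 in transferred cells (0.0546 and 0.0569). Abcg1 had 2.50, 2.18 and 2.64 in the immunised group and 2.91, 3.14 and 3.91 in transferred cells. It was not called in the immunised group (0.58 ± 0.32, adjusted p = 0.191) and rose in transferred cells by 1.47 ± 0.32 (adjusted p = 0.00739), and the difference between the CNS groups was itself not called (−0.88 ± 0.32, adjusted p = 0.165).

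Nr1h2 had 3.73, 3.83 and 3.87 in the immunised group and 3.34, 3.24 and 3.37 in transferred cells, and was called in neither group (0.19 ± 0.22 and −0.30 ± 0.22). Without cultured replicate 3 it passed the test in the immunised group (0.48, adjusted p = 0.0285). Beside the LXR rises stand the macrophage markers, whose summed signal was 360 to 890 and 408 to 693 in the CNS groups, against 22.8 to 37.9 in culture. Of 9 microglia markers, 8 were called higher than in culture in each CNS group, and 0 lower. The 8 are 88.9% of the list, against 13.7% of all genes in the immunised group and 12.8% in transferred cells. All 9 were well above background on every CNS array, but only 6 on all cultured arrays. P2ry13, on no cultured or naive array, entered the test only through the CNS groups. The share is thus partly set by the choice of genes tested. Macrophages are known to express Abca1 and Nr1h3, and the part of macrophages and of microglia in the rises was not tested. The summed T cell core signal was lower in the CNS groups than in culture, and its part in the falls of the synthesis genes was not tested.

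**Figure D4:**
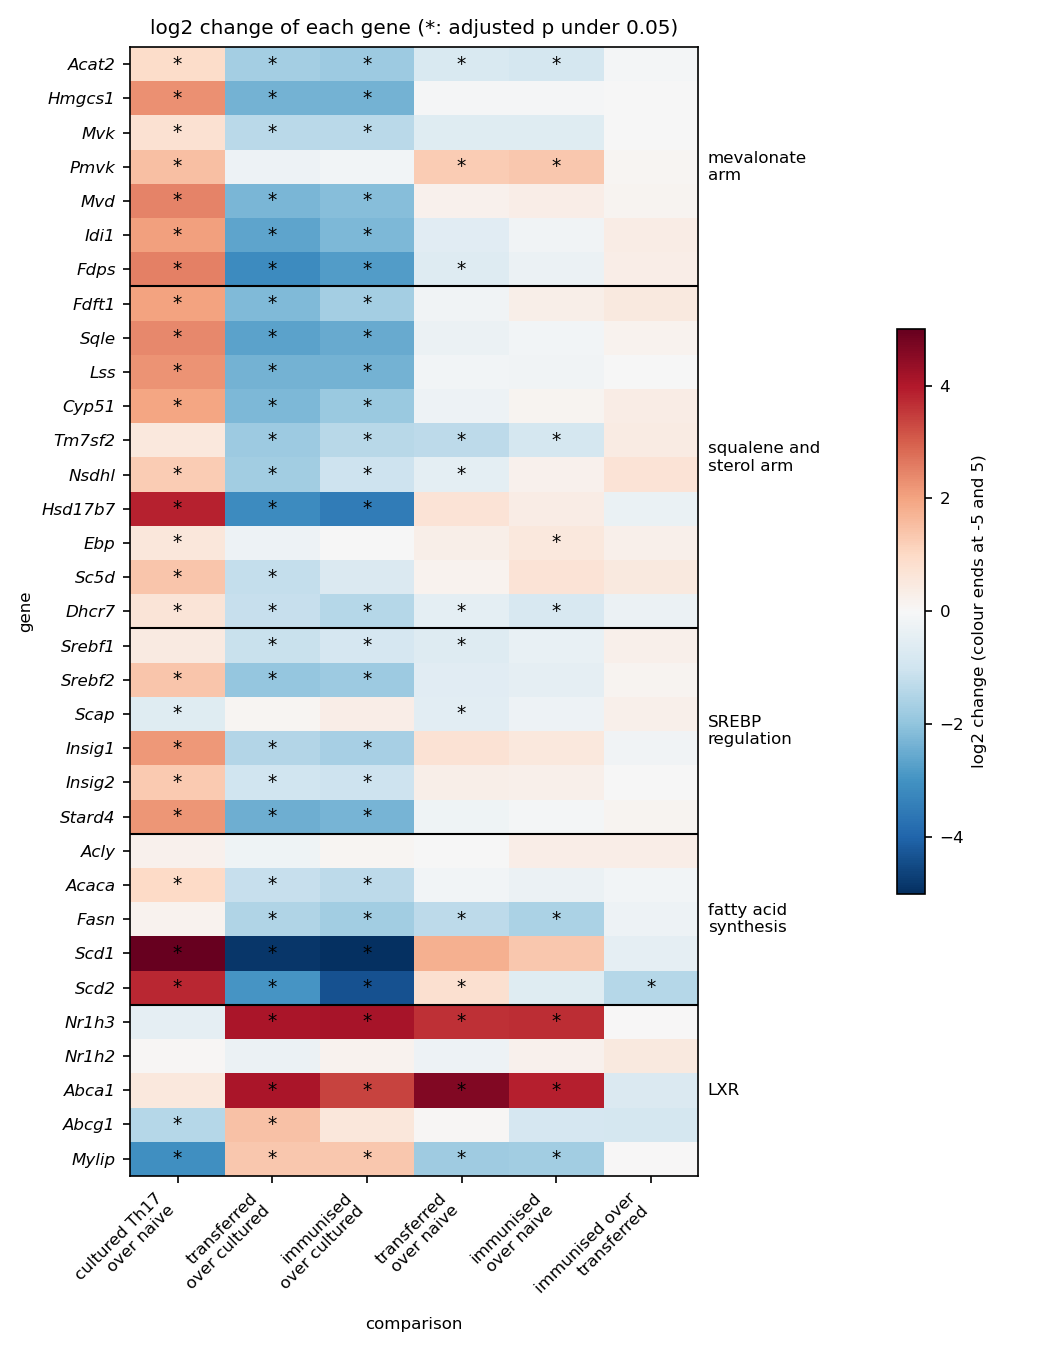
Fitted log2 change (colour, ending at −5 and 5) of the 33 genes, grouped by role, in the 6 comparisons, with a star where the limma adjusted p was under 0.05. The synthesis enzymes are mostly red for cultured Th17 cells over naive cells and blue for both CNS groups over culture, while Nr1h3 and Abca1 are red for the CNS groups over culture and over naive cells.

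Set against naive cells, in comparisons that share the naive arrays, the CNS groups had far fewer calls among these genes. In the immunised group 4 rose and 5 fell, where 20.6% of all genes tested rose and 27.7% fell (48.3% in either direction). In transferred cells 4 rose and 9 fell, where 21.2% of all genes rose and 26.5% fell (47.7% in either direction). Without regard to any test, all arrays of the immunised group lay below all naive arrays for 39.4% of all genes and above them for 26.2%, and those of transferred cells for 33.5% and 25.7%. The 17 enzymes had a median change of −0.07 in the immunised group and −0.27 in transferred cells, against −0.19 and −0.12 over all genes. On the 3 slides it was −0.34, 0.37 and −0.09 in the immunised group and −0.68, 0.19 and −0.42 in transferred cells, so its sign was not the same on every slide.

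Hsd17b7 differed from naive cells by 0.36 ± 0.36 in the immunised group and 0.70 ± 0.36 in transferred cells, Sqle by −0.13 ± 0.33 and −0.29 ± 0.33, and Hmgcs1 by −0.07 ± 0.17 and −0.06 ± 0.17. These were not called, which does not show that the levels were equal. Lower than in naive cells in both CNS groups were Acat2 (−0.89 ± 0.19 and −0.78 ± 0.19), Tm7sf2 (−0.87 ± 0.23 and −1.30 ± 0.23), Dhcr7 (−0.79 ± 0.18 and −0.50 ± 0.18) and Fasn (−1.57 ± 0.26 and −1.31 ± 0.26). Pmvk was higher than in naive cells in both, by 1.35 ± 0.37 and 1.27 ± 0.37. Of the 9 calls in the immunised group, 2 were lost without 1 or more single arrays (Pmvk and Ebp), and of the 13 in transferred cells, 7 were (Pmvk, Fdps, Nsdhl, Dhcr7, Srebf1, Scap and Scd2). Scd1, not called in transferred cells (1.79 ± 0.79), passed the test without transferred replicate 2 (2.82, adjusted p = 0.00375).

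Abca1 was 3.87 ± 0.73 higher than in naive cells in the immunised group (adjusted p = 0.00159) and 4.61 ± 0.73 higher in transferred cells (adjusted p = 0.000537), and Nr1h3 3.69 ± 0.58 and 3.66 ± 0.58 higher (4.25 in transferred cells without transferred replicate 1). Most macrophage and microglia markers were higher there too, and their part was not tested. Mylip fell against naive cells, with changes of −1.74 ± 0.35 and −1.76 ± 0.35 (adjusted p = 0.00212 and 0.00196). Its CNS arrays thus lay between the cultured and the naive arrays, while those of Abca1 and Nr1h3 lay above both. Abcg1 differed from naive cells by −0.83 ± 0.32 in the immunised group (adjusted p = 0.0546) and by 0.05 ± 0.32 in transferred cells (adjusted p = 0.913). The difference in the immunised group passed the test without naive replicate 1, cultured replicate 2 or 3, or transferred replicate 3 (adjusted p = 0.0486, 0.048, 0.0322 and 0.0344).

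Each gene was also taken relative to its own mean over the 12 arrays, which sets the arms side by side. The median of the 17 synthesis enzymes was −0.56, −0.47 and −0.37 on the immunised arrays, −0.74, −0.58 and −0.68 on the transferred arrays, 1.36, 1.28 and 1.43 on the cultured arrays and −0.08, −0.74 and −0.46 on the naive arrays. The median of Abca1, Abcg1, Mylip and Nr1h3 was 0.89, 0.30 and 1.15 on the immunised arrays, 0.54, 1.41 and 1.86 on the transferred arrays, −1.20, −0.85 and −2.47 on the cultured arrays and −0.77, −0.30 and −0.70 on the naive arrays. The synthesis median was above the LXR median on all 3 cultured arrays and below it on all 6 CNS arrays, and naive arrays fell on either side. Each mean includes the cultured arrays, so their high synthesis levels lower the synthesis values on the other arrays. The difference between the medians of the fitted changes, synthesis minus LXR, was −4.17 in the immunised group over culture (−3.92, −2.83 and −5.74 on the 3 slides), −4.97 in transferred cells over culture (−3.88, −3.73 and −6.30) and 2.89 in culture over naive cells (1.98, 2.70 and 3.57). Over naive cells it was smaller, at −1.5 in the immunised group (−1.87, −0.09 and −2.19) and −2.12 in transferred cells (−1.92, −1.52 and −2.98). There Abca1 and Nr1h3 rose while Mylip fell, so the LXR median stands for no single gene. No test was made of these medians, since the genes were chosen with results known.

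**Figure D5:**
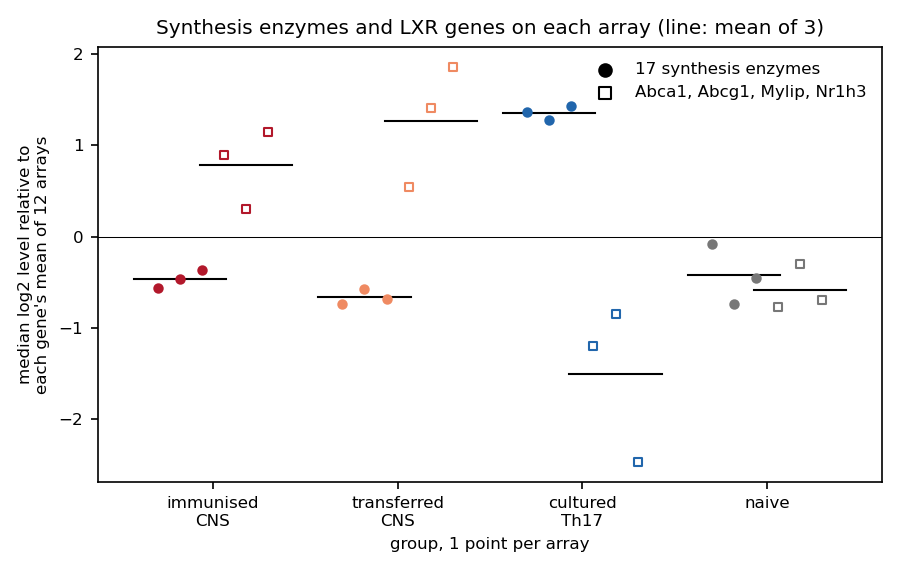
Median level of the 17 synthesis enzymes and of Abca1, Abcg1, Mylip and Nr1h3 on each array, each gene relative to its mean over 12 arrays (vertical axis, log2), by group, with marks for each set as in the legend. The synthesis enzymes are at 1.28 to 1.43 in cultured Th17 cells, where the LXR genes are at −2.47 to −0.85, and the LXR genes are the higher set on all 6 CNS arrays.

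Counted array by array, 22 of the 33 genes were higher on all 3 cultured arrays than on the 9 others, against 8.53% of all genes tested. They included 14 of the 17 synthesis enzymes, the exceptions being Pmvk, Ebp and Sc5d. Called higher in culture and lower in both CNS groups were 20 of the 33 genes, against 5.57% of all genes. Abca1 and Nr1h3, 2 of the 33, had all 6 CNS arrays above the 6 others, a share not above the 7.33% of all genes. Acat2, Tm7sf2, Dhcr7, Srebf1, Acaca and Fasn had all 6 CNS arrays below the others (7.71% of all genes).

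Between the CNS groups 1 of the 33 genes was called lower and 0 higher, where limma called 1.37% of all genes lower and 1.85% higher (3.22% in either direction). At an unadjusted p under 0.05, 2 were higher and 2 lower. Scd2 had 1.32, 1.35 and 1.34 in the immunised group, against 3.07, 2.53 and 2.63 in transferred cells, and was lower in the immunised group (−1.41 ± 0.26, adjusted p = 0.017). The groups did not overlap, as was so for 18.6% of all genes in that direction (15.2% in the other), and on the 3 slides the difference was −1.76, −1.18 and −1.29. The call was lost without any 1 of the immunised arrays (adjusted p = 0.0743, 0.0669 and 0.0512), with differences of −1.40, −1.42 and −1.41. The summed signal of 10 neutrophil markers also differed, at 478 to 609 in the immunised group, against 5.97 to 179 in transferred cells, and its part in this difference was not tested. Nsdhl differed by 0.69 ± 0.18 (adjusted p = 0.0691), and passed the test without cultured replicate 3 (0.0214), as did Nr1h2 (0.49 ± 0.22, adjusted p = 0.251, and 0.0475 without that array).

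Other genes of these pathways were taken from lists. Of 17 other SREBP targets, 10 rose in culture over naive cells (58.8%, against 19.7% of all genes tested) and 2 fell (11.8%, against 20.3%). Fads2, a fatty acid desaturase, and Me1, the malic enzyme that makes NADPH, were not well above background on any naive array and were at least 24.6-fold and 18.5-fold higher in culture, although without cultured replicate 3 the bound for Me1 was 9.56-fold. Both genes entered the test only through the cultured arrays, and the shares of this list include them. Fabp5, a fatty acid binding protein, rose by 5.40 ± 0.49 and Tmem97, a sterol-regulated membrane protein, by 2.56 ± 0.38. Over culture, 12 of the 17 fell in each CNS group (70.6%, against 17.8% of all genes in the immunised group and 15.5% in transferred cells), and limma called 0 higher (0 at an unadjusted p under 0.05). Fads2 was at least 23.6-fold lower in the immunised group and 25.3-fold lower in transferred cells, and Me1, well above background on 2 of 3 arrays of each, changed by −3.74 ± 0.67 and −3.99 ± 0.67 (−2.78 and −3.03 without cultured replicate 3). Acsl3, an acyl-CoA synthetase, changed by −3.05 ± 0.21 and −3.03 ± 0.21. Fabp5 was called in neither comparison with culture (−0.82 ± 0.49 and 0.42 ± 0.49) and was 4.58 ± 0.49 and 5.82 ± 0.49 above naive cells. Between the CNS groups Acss2, an acetyl-CoA synthetase, was 1.36 ± 0.29 higher in the immunised group (adjusted p = 0.0324), a call that was lost without immunised replicate 1 or 2 or transferred replicate 2 or 3 (adjusted p = 0.116, 0.116, 0.0891 and 0.118).

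Of 12 other LXR targets tested, 8 rose and 2 fell in each CNS group over culture. The 8 are 66.7% of the list, against 13.7% of all genes in the immunised group and 12.8% in transferred cells, while the 2 are 16.7%, close to the 17.8% and 15.5% of all genes that fell. Apoe, an apolipoprotein that accepts cholesterol, rose by 9.90 ± 0.31 in the immunised group and 10.28 ± 0.31 in transferred cells, and Apoc2, a cofactor of lipoprotein lipase, by 8.21 ± 0.50 and 8.12 ± 0.50. Mertk, a receptor for the uptake of dying cells, was at least 101-fold and 160-fold higher, as it was not well above background on any cultured array. Nor was it on any naive array, so Mertk entered the test only through the CNS groups, and the shares of the list include it. In culture over naive cells 5 of these targets were called higher (41.7%, against 19.7% of all genes) and 1 lower (8.33%, against 20.3%). Lpl, lipoprotein lipase, rose by 2.69 ± 0.42, with 1 naive array well above background, and Apoe changed by −1.28 ± 0.31. In the same comparison 10 of 17 macrophage and monocyte markers tested were called higher (58.8%) and 1 lower (5.88%). The summed signal of the 18 listed was up to 37.9 in culture and up to 97.8 in naive cells, and the part of such cells was not tested. Macrophages are known to express Apoe, Apoc2 and Mertk. In the CNS groups most macrophage and microglia markers rose beside these genes, and the part of those cells was not tested.

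Of 19 genes of oxysterol and cholesterol handling tested, 8 rose and 2 fell in the immunised group over culture, and 9 rose and 3 fell in transferred cells. The rises are 42.1% and 47.4% of the list, against 13.7% and 12.8% of all genes, and the falls, at 10.5% and 15.8%, are not above the 17.8% of all genes in the immunised group and about equal to the 15.5% in transferred cells. Ch25h, which makes an oxysterol, and Cyp27a1, which makes another, were not well above background on any cultured or naive array. Both entered the test only through the CNS groups, and the shares of the list include them. Ch25h was at least 11.9-fold and 20.4-fold higher in the CNS groups, and Cyp27a1 at least 7.34-fold and 5.56-fold higher. The Ch25h bound in transferred cells rested on uneven arrays, with a level of −4.07 on replicate 2 and 1.45 on replicate 3, and was 51-fold without the first of these and 7.54-fold without the other. Vldlr, a lipoprotein receptor and substrate of Mylip, was at least 90.2-fold lower in the immunised group and changed by −6.12 ± 1.29 in transferred cells. Its cultured arrays were uneven as well, at −0.86, 0.17 and 3.63, so that the bound was 171-fold without replicate 1 and 36-fold without replicate 3, and the change in transferred cells −7.04 and −4.79. Soat2, which esterifies cholesterol, rose by 3.94 ± 0.24 in culture over naive cells and was lower in the immunised group than in transferred cells (−1.20 ± 0.24, adjusted p = 0.0235). That last call was lost without any 1 of the immunised arrays or transferred replicate 2 or 3 (adjusted p up to 0.095).

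Of 12 genes of the SREBP and sterol sensing machinery tested, 3 rose and 2 fell in culture over naive cells (25% and 16.7%, near the 19.7% and 20.3% of all genes). There Sec24d, a coat protein of export vesicles, rose by 1.24 ± 0.41 (0.64 without cultured replicate 3, and not called without any 1 of the naive arrays, with adjusted p up to 0.0929), and Mbtps1, a protease that cleaves SREBPs, changed by −0.80 ± 0.14. Rnf145, a sterol-responsive ubiquitin ligase, fell in both the immunised group (−1.06 ± 0.18) and transferred cells (−1.36 ± 0.18) over culture. Of 15 cell cycle genes, 10 rose in culture over naive cells (66.7%, against 19.7% of all genes). In the immunised group 5 of the 15 fell over culture (33.3%, against 17.8% of all genes), with a median of −0.54 where the synthesis enzymes had −1.82. In transferred cells limma called 0 of the 15, and 2 were lower at an unadjusted p under 0.05, with a median of −0.16 where the synthesis enzymes had −2.19.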

How the data were processed

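RNA of the 12 samples was amplified and labelled with Cy3, per the labels' protocols. The spot intensity values were deposited as the scanner software wrote them: the file headers give Agilent Feature Extraction, version 10.7.3.1, with the settings GE1_107_Sep09, and the submitters' processing notes name the same software. These values are background-subtracted within each array and not scaled across arrays. The deposited series matrix holds intensity values of the same arrays, whose normalization is not stated, and it was used as an alternative. Its medians were nearly equal over the arrays (50.4 to 51.2), and its results were nearly those of quantile normalization. It is therefore not a separate check from that alternative. Probe coordinates are on mm9, per the file headers.

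Outlier spots (120 to 180 of 43020 non-control spots per array) were left out, repeated spots were averaged, and log2 signals were set relative to each array's 75th percentile over probes. The scaling was first run over spots, and after its counts were seen it was changed to probes, the processing already described for these data. The scaling over spots is given as an alternative that was added after seeing the data. Each gene kept its brightest probe, and 18630 genes passed a filter on dim probes (3 of 3 arrays well above background in some group). A fold against a group with no array well above background is a lower bound, against the mean of each array's lowest signal well above background or the probe's own signal where higher.

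All 12 arrays entered 1 model in limma 3.58.1 (R 4.3.3; lmFit, contrasts, eBayes), with Benjamini-Hochberg adjustment over all genes and a threshold of 0.05. Tests are two-sided, and ± is the SE of the fit. Precision is limited by 3 arrays per group. On simulated data with 200 of 18630 genes changed, 67% to 78% of changes of 2 log2 units and 25% to 41% of changes of 1 were called over the 6 comparisons, 6 to 9 unchanged genes were called, and no change was called in the wrong direction. In the real data 28.3% to 48.3% of genes were called, except between the CNS groups (3.22%). The adjustment depends on that share, so the simulated rates do not give the recovery in the real comparisons. A first stopping rule of 70% recovery was dropped when 1 comparison reached 67%.

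The replicate number is also the slide. Deviations of same-numbered arrays from their group means correlated at −0.198 to 0.204 over 18 pairs, against −0.311 to 0.325 over 36 pairs of different numbers. They were all positive for transferred with cultured (0.046, 0.118 and 0.108) and with naive arrays (0.055, 0.199 and 0.077). For immunised with naive arrays they were all negative (−0.031, −0.115 and −0.141), and in the other comparisons of mixed sign. The numbers were not taken as pairs, but 3 arrays per group cannot show that pairing is absent. Named genes were all 33 members, with values on every array for the markers Sqle, Fdps, Hsd17b7 and Abca1, for the regulators, fatty acid and LXR genes and for the largest called rise and fall of each comparison, and up to 4 called genes of each other pathway list. The members and lists were chosen with earlier results of these data known. Other alternatives were other normalizations, filters, probes, priors and thresholds, and leaving out each array. Promoter windows are RefSeq's on GRCm38.p6, and motifs were matched in Python 3.11.15.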

Additional observations from a re-analysis of the deposited data

Results flagged for a closer look

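Scd2 is the gene of the set for which the fall from cultured Th17 cells differed by test between the immunised group and transferred cells. The changes were −4.34 ± 0.26 and −2.93 ± 0.26, and their difference was −1.41 ± 0.26 (limma adjusted p = 0.017, lower in the immunised group). The call was lost without any 1 of the immunised arrays (adjusted p = 0.0743, 0.0669 and 0.0512) and at an adjusted p threshold of 0.01.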

How the results depend on the processing

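The numbers of members called stayed within 1.5 times the main count in 4 of the 6 comparisons under every alternative and without each array. For transferred over naive cells (13 called), median scaling and no filter on dim probes each left 8, a threshold of 0.01 left 6, and leaving out single arrays gave 8 to 14, with 8 without naive replicate 1 or 3. For the immunised group over transferred cells (1 called), the 6 arrays alone gave 2, a threshold of 0.01 gave 0, and leaving out single arrays gave 0 to 3, with 0 without any 1 immunised array and 3 without cultured replicate 3. The synthesis minus LXR difference kept its sign throughout. With the replicate block 25 members were called in culture over naive, 26 in immunised over cultured, 28 in transferred over cultured, 8 in immunised over naive, 11 in transferred over naive and 1 in immunised over transferred, and the block ended 4 calls, those of Ebp in culture over naive cells (adjusted p = 0.0526), Fdps (0.052) and Nsdhl (0.0593) in transferred over naive cells, and Ebp in the immunised group over naive cells (0.0532). Taking the percentile over spots, an alternative added after seeing the data, ended no call and added 2.

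Signs changed with the probe chosen. With the second brightest probe, transferred over cultured gave 2.41 for Fdft1 (that probe was well above background on 3 of 12 arrays), 1.68 for Srebf2 and 0.33 for Acly, immunised over cultured 1.17 for Fdft1 and 2.04 for Srebf2, transferred over naive 2.93 for Fdft1, 2.60 for Srebf2, 0.41 for Stard4 and 0.37 for Acly, and immunised over naive 2.96 for Srebf2 and 1.13 for Stard4. Immunised over transferred gave 0.37 for Hmgcs1, −1.24 for Fdft1, 0.01 for Hsd17b7, −0.16 for Acly, −0.18 for Nr1h3 and −0.41 for Mylip. With the mean of all detected probes, transferred over cultured gave 0.11 for Fdft1 and 0.05 for Acly, immunised over cultured 0.11 for Srebf2, transferred over naive 1.38 for Fdft1, 1.01 for Srebf2, 0.09 for Stard4 and 0.18 for Acly, immunised over naive 1.26 for Srebf2 and 0.51 for Stard4, and immunised over transferred 0.18 for Hmgcs1, −0.38 for Fdft1, −0.08 for Nr1h3 and −0.19 for Mylip. The cause was not tested.

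Every other change of sign was between values that were not called. Median scaling gave −0.03 for Scap in transferred over cultured, and for immunised over transferred 0.03 for Hmgcs1, Mvk and Lss and 0.01 for Insig2. Normexp background correction with quantile normalization gave −0.07 for Acly and −0.15 for Nr1h2 in culture over naive, −0.15 for Abcg1 in transferred over naive, −0.05 for Nr1h2 in immunised over naive and 0.03 for Lss in immunised over transferred. Quantile normalization and the series matrix both gave −0.03 for Acly and −0.19 for Nr1h2 in culture over naive, 0.04 for Ebp in immunised over cultured, −0.10 for Abcg1 in transferred over naive, and 0.01 for Lss and 0.00 for Mylip in immunised over transferred.

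Leaving out single arrays moved uncalled values across 0: in culture over naive, Nr1h2 from −0.25 to 0.20 and Abca1 from −0.27 to 1.34; in transferred over cultured, Scap from −0.04 to 0.23; in immunised over cultured, Pmvk from −0.33 to 0.07 and Ebp from −0.08 to 0.03. In transferred over naive the ranges were −0.21 to 0.05 for Hmgcs1, −0.02 to 0.49 for Mvd, −0.36 to 0.09 for Fdft1, −0.69 to 0.07 for Sqle, −0.11 to 0.43 for Sc5d, −0.09 to 0.10 for Acly and −0.25 to 0.26 for Abcg1. In immunised over naive they were −0.22 to 0.04 for Hmgcs1, −0.53 to 0.23 for Sqle, −0.03 to 0.26 for Cyp51 and −0.02 to 0.46 for Insig2. In immunised over transferred they were −0.12 to 0.05 for Hmgcs1, −0.18 to 0.18 for Mvk, −0.14 to 0.52 for Pmvk, −0.07 to 0.33 for Mvd, −0.16 to 0.10 for Lss, −0.52 to 0.00 for Hsd17b7, −0.08 to 0.30 for Srebf2, −0.08 to 0.06 for Insig2, −1.46 to 0.18 for Scd1, −0.56 to 0.38 for Nr1h3 and −0.15 to 0.23 for Mylip. Called members that kept their call without each array numbered 22 of 26 in culture over naive, 24 of 26 in immunised over cultured, 26 of 28 in transferred over cultured, 7 of 9 in immunised over naive, 6 of 13 in transferred over naive and 0 of 1 in immunised over transferred. Signals near background limit Scd1, and 3 arrays per group limit all values.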
